A study of Mus musculus with 9 samples.

Results

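Neurons of the mouse central amygdala that express both Prkcd, which encodes protein kinase C delta, and Cartpt, which encodes the precursor of the CART (cocaine- and amphetamine-regulated transcript) peptides, were described in single-cell RNA-seq counts. They made up 177 of the 829 cells and of the 810 inhibitory neurons. A cell was called positive for a gene at 1 or more counts per 10000 of its gene counts, which is 100 on the CPM scale (counts scaled to the same total in each cell or sum). Inhibitory neurons were positive for Gad1, Gad2 or Slc32a1 and negative for Slc17a6 and Slc17a7. The members, chosen by their measured counts of these marker genes, were inhibitory, positive for Prkcd and Cartpt, and negative for Sst, Crh, Tac2 and Nts, the other peptide markers in common use for this nucleus. They were compared with 112 neurons that met the same conditions but were Cartpt-negative. All cells came from wild-type (WT) B6 mice, microdissected from acute slices, dissociated and pooled, and the labels name no treatment, so both classes are cells of the same 9 samples. The samples carry 3 animal numbers and 3 date fields. The sources used here do not say whether they are separate animals, and every p-value measures only the spread between these samples.

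The central amygdala is a forebrain nucleus of mostly GABAergic projection neurons that takes part in fear, pain and feeding. Its Prkcd neurons lie largely in the lateral division and inhibit other neurons of the nucleus, and many of them make enkephalin. CART is made as a larger precursor, which enters the regulated secretory pathway, is cut by prohormone convertases and is released from dense core vesicles, as are the peptides made from Penk and Tac1.

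Each sample held 16 to 28 members (21, 28, 21, 17, 17, 16, 21, 20 and 16 in samples 1 to 9) and 8 to 16 comparison cells. The summed gene counts of a sample were 1845402 to 4264997 for the members and 881631 to 2381542 for the comparison cells. Of 376 cell barcodes, 368 occurred in more than 1 sample, and the 829 pairs of barcode and sample were all different. Only 1 member had under 20000 gene counts. The median gene counts of a member cell differed from those of a comparison cell by 0.029 ± 0.168 on the log2 scale (SD, n = 9 samples, exact two-sided sign-flip permutation p = 0.613, adjusted p = 0.920 over 3 tests of this kind). With every cell thinned to 50000 counts, 173 members and 108 comparison cells remained. They had 3901 ± 184 and 3906 ± 167 detected genes per cell (SD, n = 9, exact permutation p = 0.930, adjusted p = 0.930), and unthinned 4448 ± 322 and 4440 ± 219.

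Most Prkcd neurons of the nucleus were Cartpt-positive, and most Cartpt-positive neurons had Prkcd. Of the 343 Prkcd-positive inhibitory neurons, 204 were Cartpt-positive, a share of 59.6% ± 4.32 (SD, n = 9 samples). Among Prkcd-negative inhibitory neurons the share was 9.98% ± 4.79. Of the 251 Cartpt-positive neurons, 81.5% ± 8.30 were Prkcd-positive. With the cells positive for another peptide marker left out, the members were 61.2% ± 5.72 of the remaining Prkcd neurons, from 55.2% to 72.4% by sample, and 21.9% ± 4.23 of all inhibitory neurons. By date field the share of Prkcd neurons was 64.8%, 60.2% and 58.2%, and by animal number 64.8%, 63.1% and 55.8%. The rule fixes these shares, so they carry no test.

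Leaving out the other peptide markers removed 27 neurons from the Cartpt-positive side and 27 from the smaller Cartpt-negative side. Sst, the somatostatin gene, was positive in 4 of the 204 Cartpt-positive and 19 of the 139 Cartpt-negative Prkcd neurons. The neurotensin gene Nts was positive in 4 and 24 of them, and Tac2, which encodes the neurokinin B precursor, in 6 and 23. Crh, the corticotropin-releasing hormone gene, was positive in 14 and 20. Negative here means below the threshold, since 85 of the 177 members and 47 of the 112 comparison cells still had at least 1 count of Sst.

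Cartpt itself formed a wide range of levels. The members' summed Cartpt level was lowest at 1424, median 2405 and highest 3443 CPM over the 9 samples, and that of the comparison cells 1.13, 7.85 and 15.5 CPM, with no overlap, as the rule requires. In single members Cartpt ran from 107 to 15086 CPM with a median of 1127. The members just inside the threshold had 107, 115 and 116 CPM, and the Cartpt-negative cells just outside it 88.3, 87.8 and 73.1 CPM. Few cells lay near it, with 5 cells between 50 and 100 CPM and 13 between 100 and 200 CPM, and 65 of the 112 comparison cells had no Cartpt count. Over the 289 cells of both classes, Spearman's rho of Cartpt CPM was -0.019 with gene counts per cell and 0.20 with Prkcd CPM, which share the cell's depth. Prkcd was 861 CPM in the median sample of the members (572 to 1184) and 584 in that of the comparison cells (415 to 859), and was higher in the members of 9 of 9 samples. Both genes belong to the rule, so these levels are a description.

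**Figure D1:**
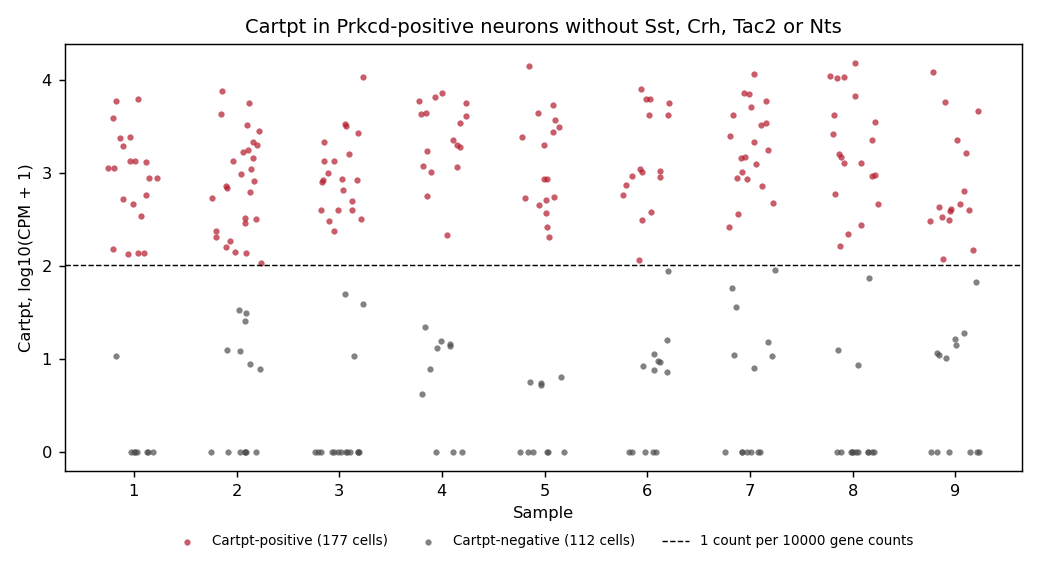
Cartpt level of each Prkcd neuron as log10(CPM + 1), by sample, with horizontal jitter. Red points are the 177 Cartpt-positive cells and grey points the 112 Cartpt-negative cells, and the dashed line is the threshold of 1 count per 10000. Every sample holds both classes, and 65 grey cells sit at 0.

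The Cartpt promoter holds a cAMP response element, the palindrome bound by CREB-family factors. Its sequence is shown because it lies in the promoter of the gene that defines these neurons. Whether the element acts in these neurons was not tested. The site lies at chr13:99900777-99900806 of GRCm38.p6, minus strand, and the first base of the element is 112 bases before the RefSeq start. The 30 bases, 5′ to 3′ on the gene's strand, come from the RefSeq promoter table, with the element in capitals.
Cartpt: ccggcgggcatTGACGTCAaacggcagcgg
The element TGACGTCA was found, on either strand, in 1.79% of the 32851 windows of 300 bases (250 before to 50 after a start). Counted by gene, with a match in any of its windows, the share was 2.03% of 27025 genes. Of the 21 genes described below as different between the classes, 16 were in that table, and 0 of the 16 held the element in this window. Penk, Nkain3, Twf2, Vgf and Gria3 had no entry there and were not searched. The AP-1 motif was searched as TGANTCA with any base at N, which is wider than C or G alone. It was present in 7.81% of all windows, in 8.97% of all genes and in 1 of the 16 genes, Ezr. TATAAA was present in 13.6% of windows, in 15.7% of all genes and in 0 of the 16. The 3 motifs differ in letters and were counted separately. A match describes the letters only. The deposited counts were made on another build (NCBIM37), and genes were matched by symbol.

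The split by Cartpt went along in part with the rest of the transcriptome. For each Prkcd neuron the 10 nearest cells of other samples were found on variable genes, with the 11 genes of the rule left out. Members were 61.2% ± 5.72 of these neurons by sample, the share to read the next values against. Cartpt-positive cells made up 73.3% ± 5.88 of the neighbours of members, from 61.9% to 80.0% by sample, and 49.9% ± 5.57 of the neighbours of comparison cells, from 40.0% to 58.0%. The groups did not overlap, and the difference was 23.5 ± 6.96 percentage points, above 0 in 9 of 9 samples (exact two-sided sign-flip permutation p = 0.00391, the smallest 9 samples allow, adjusted p = 0.0117 over 3 tests). The neighbour share followed the level of Cartpt and not only the threshold. It was 47.5% for the 65 cells with no count, 53.8% for the 47 cells with a lower level than 100 CPM, 65.1% for the 81 cells from 100 to under 1000 CPM and 80.5% for the 96 cells at 1000 CPM or more. These 4 values are over cells pooled from all samples and are a description.

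**Figure D2:**
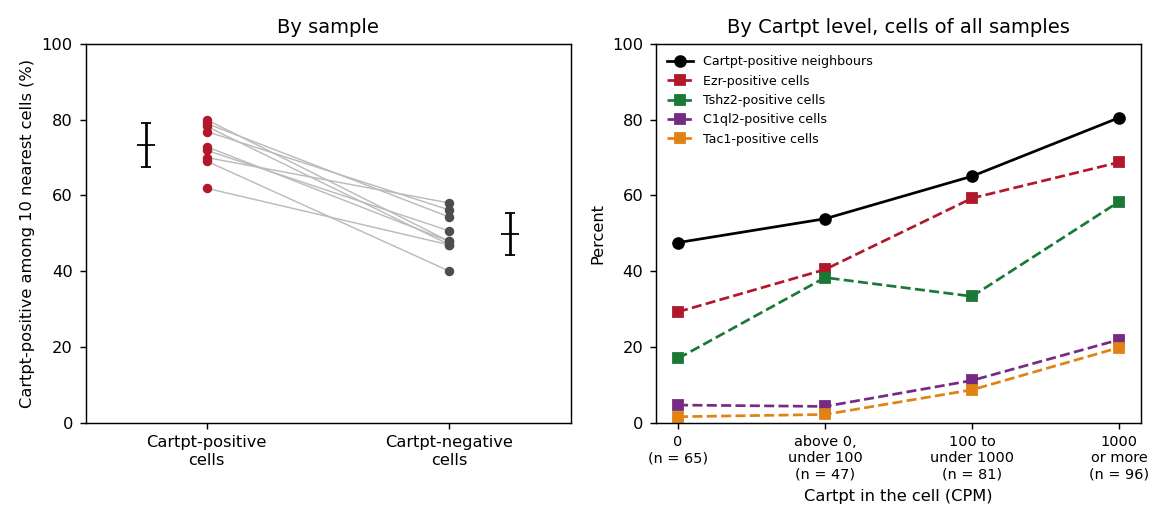
Left, percent of Cartpt-positive cells among the 10 nearest cells of other samples, for the Cartpt-positive and Cartpt-negative cells of each sample (joined points, bars mean and SD over 9 samples). Right, the same share and the percent of cells positive for Ezr, Tshz2, C1ql2 and Tac1 in 4 ranges of Cartpt CPM, over pooled cells. The neighbour share is 47.5% at 0 and 80.5% at 1000 CPM or more.

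Genes were then compared between members and comparison cells on counts summed per sample and class. Relative to Cartpt-negative Prkcd neurons the members had more Cst3, Ncdn, Ezr, Resp18, Bpgm, Ptprn, Tshz2, Tac1 and Vgf. They had less Hpca, Penk and Gria3. Of 9347 genes tested besides those of the rule, 17 were higher in the members (0.182% of those tested) and 4 lower (0.0428%), together 0.225%, by edgeR's quasi-likelihood test with sample as a block at a Benjamini-Hochberg adjusted p under 0.05. All adjusted p-values below are from that fit unless another is named. The median log2 fold change of all tested genes was 0.07, with quartiles of -0.20 and 0.39. For 7 of the 21 genes the per-sample levels of the classes did not overlap, as for 9 of all the genes tested (0.0963%). Within the 3 samples of each date field all 21 genes kept their direction, but 0 passed by edgeR, with 397, 387 and 423 genes at an unadjusted p under 0.05. The mean per-sample log2 difference by date field was 2.06, 1.57 and 1.43 for Ezr, 3.01, 3.27 and 4.45 for Tac1, and -1.14, -0.99 and -0.93 for Penk (1 CPM added to each value). Summed per animal number, 0 genes passed, with 755 at an unadjusted p under 0.05. With each sample left out in turn, 10 of the 21 genes passed in all 9 fits (Ezr, Tshz2, Bpgm, Resp18, Rab11a, Cst3, Ptprn, Ncdn, Hpca and 6330403K07Rik). Fkbp1a and Tac1 passed in 8, Itm2c in 7, Atp6ap2 in 5, Vgf in 4, Rap1gap in 3 and Nnat in 2, and the highest adjusted p of any of the 21 was 0.138. The count was 10 higher and 2 lower genes without sample 7, the same without sample 8, and 13 higher and 2 lower without sample 3. Fold changes come from the fit and need not equal the ratio of 2 mean CPM values. In such sums, fewer expressing cells and less RNA per cell cannot be told apart, so the share of positive cells is given beside the level where it differs.

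**Figure D3:**
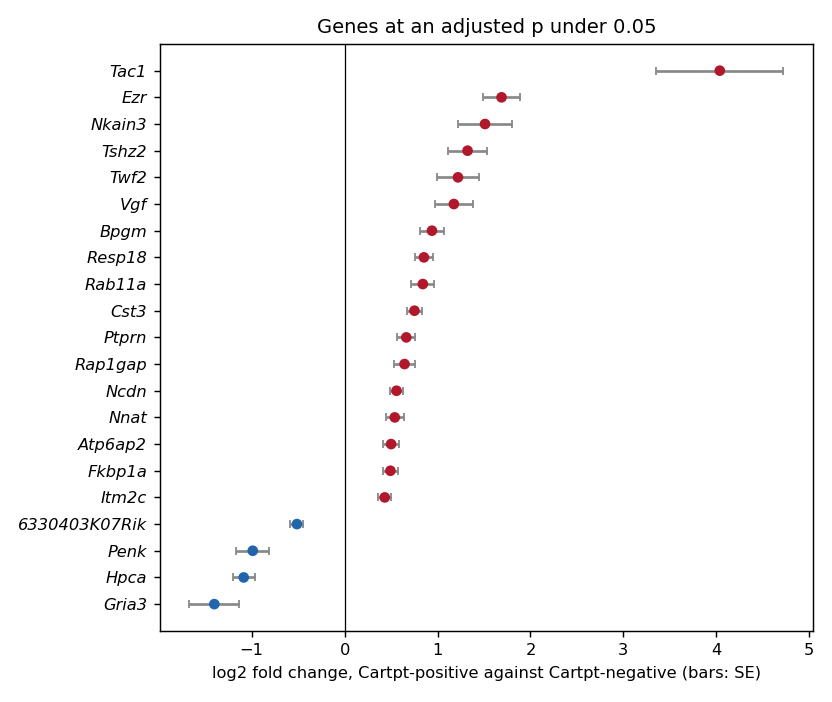
log2 fold change of each of the 21 genes at an edgeR adjusted p under 0.05, members against Cartpt-negative Prkcd neurons, with the SE of the fit. Points right of 0 (red) are the 17 higher genes, led by Tac1 at 4.04, and points left of 0 (blue) the 4 lower genes, led by Gria3 at -1.40.

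Among peptide precursors, Tac1, which encodes substance P and neurokinin A, showed the largest fold. Its level was lowest at 10.6, median 50.3 and highest 110 CPM in the members and 0, 1.21 and 14.7 CPM in the comparison cells. The members were higher in 9 of 9 samples, although the highest comparison sample lay above the lowest member sample. The log2 fold change was 4.04 ± 0.68 (SE, n = 9 samples, adjusted p = 0.0186). It rests on few cells, since 26 members (15.5% ± 8.02 by sample) and 2 comparison cells were Tac1-positive, and without sample 6 the adjusted p was 0.0511. With equal cell numbers per class it did not pass (log2 fold change 3.08, adjusted p = 0.589).

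Vgf, a granin-like precursor cut into several secreted peptides, had 153, 197 and 288 CPM (lowest, median, highest sample) in the members and 54.3, 94.1 and 120 CPM in the comparison cells. The ranges did not overlap, and the log2 fold change was 1.18 ± 0.20 (SE, n = 9, adjusted p = 0.0205). The share of Vgf-positive cells was 63.9% ± 12.5 and 34.4% ± 8.86 (SD).

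Penk, the enkephalin precursor gene, was lower in the members. It had 1147, 1931 and 3105 CPM in the members and 2350, 4210 and 5066 CPM in the comparison cells, lower in 9 of 9 samples with overlapping ranges. The log2 fold change was -0.99 ± 0.18 (SE, n = 9, adjusted p = 0.0252). The share of Penk-positive cells was 82.8% ± 13.3 in the members and 83.1% ± 9.81 in the comparison cells. Across the 4 ranges of Cartpt level, from 0 to 1000 CPM or more, mean Penk was 3944, 2905, 2328 and 1398 CPM, its median 3541, 947, 1622 and 644 CPM, and its positive share 86.2%, 78.7%, 86.4% and 80.2%. The medians do not fall steadily, since cells with some Cartpt below 100 CPM lie under those from 100 to under 1000 CPM. Penk passed in 4 of the 9 fits that leave out a sample, with a highest adjusted p of 0.104 (without sample 7).

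Of the 7 precursor genes tested besides those of the rule, 2 were higher, 1 lower and 4 did not pass, with a median log2 fold change of 1.07. Among those 4, Scg2, which encodes secretogranin II, had a log2 fold change of -0.18 ± 0.10 (adjusted p = 0.766). Nmb, the neuromedin B gene, had 3.09 ± 1.05 (adjusted p = 0.399), with 16 positive members and 1 positive comparison cell. Pdyn, the dynorphin precursor gene, was too low to be tested, with 3 positive members and 2 positive comparison cells.

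The vesicle genes Resp18 and Ptprn had smaller folds. Resp18, an endocrine gene whose protein enters the regulated secretory pathway, had 1600, 2268 and 2726 CPM in the members and 971, 1191 and 1805 CPM in the comparison cells, higher in 9 of 9 samples. Its log2 fold change was 0.85 ± 0.10 (SE, n = 9, adjusted p = 0.000823). Mean Resp18 over the ranges of Cartpt level was 1142, 1642, 1683 and 2762 CPM.

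Ptprn, which encodes IA-2, a transmembrane protein of dense core vesicles, had 677, 747 and 1218 CPM in the members and 406, 531 and 615 CPM in the comparison cells. The ranges did not overlap (log2 fold change 0.66 ± 0.10, SE, n = 9, adjusted p = 0.00614). It was the gene that passed among 15 tested peptide processing and dense core vesicle genes, whose median log2 fold change was 0.09. Its paralog Ptprn2 had 0.63 ± 0.19 (adjusted p = 0.29) and the chromogranin gene Chga 0.60 ± 0.16 (adjusted p = 0.195). Cpe, the carboxypeptidase that trims peptide precursors, had 0.16 ± 0.08 (adjusted p = 0.73). The convertase gene Pcsk2 lay on the other side, at -2.89 ± 0.63 (adjusted p = 0.0977), with 6 positive members and 20 positive comparison cells.

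Ezr had the smallest adjusted p among the higher genes with a log2 fold change above 1. It encodes ezrin, which links membrane proteins to actin filaments. Its level was 143, 298 and 446 CPM in the members and 22.7, 86.9 and 176 CPM in the comparison cells, higher in 9 of 9 samples, and only the lowest member sample lay within the comparison range. The log2 fold change was 1.69 ± 0.20 (SE, n = 9, adjusted p = 0.000823), and 65.5% ± 18.4 of members and 33.3% ± 12.2 of comparison cells were positive. Across the ranges of Cartpt level the Ezr-positive share was 29.2%, 40.4%, 59.3% and 68.8%. Of 9 tested genes for ezrin, radixin, moesin and their partners, Ezr passed. Rdx, the radixin gene, had 0.46 ± 0.28 (adjusted p = 0.79).

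Twf2, which encodes twinfilin 2, an actin monomer binding protein, had 94.0, 146 and 167 CPM in the members and 20.5, 60.1 and 107 CPM in the comparison cells (log2 fold change 1.22 ± 0.23, adjusted p = 0.0328). Nkain3, whose product binds the sodium pump, had 70.0, 141 and 210 CPM against 14.3, 45.7 and 148 CPM, and its log2 fold change was 1.51 ± 0.29 (adjusted p = 0.0423), higher in 8 of 9 samples. Both rest on thin margins, since Twf2 passed in 2 and Nkain3 in 1 of the 9 fits that leave out a sample. Rab11a, the small GTPase of recycling endosomes, had a log2 fold change of 0.84 ± 0.12 (599 against 340 CPM on average, adjusted p = 0.00569). For Rap1gap, a GTPase-activating protein of Rap1, it was 0.64 ± 0.11 (1275 against 843 CPM, adjusted p = 0.0205). For Atp6ap2, an accessory subunit of the vacuolar proton pump, it was 0.50 ± 0.09 (918 against 659 CPM, adjusted p = 0.0205).

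Tshz2, a teashirt-type zinc finger factor, was the gene that passed among 23 tested transcription factors of forebrain inhibitory neurons. It had 111, 149 and 338 CPM in the members and 34.0, 85.0 and 108 CPM in the comparison cells, without overlap. The log2 fold change was 1.32 ± 0.21 (SE, n = 9, adjusted p = 0.00998), and 46.8% ± 9.93 of members and 25.99% ± 10.9 of comparison cells were positive. The median of the 23 factors was -0.10. Sox5, a factor gene with 157 ± 35.7 and 162 ± 48.6 CPM, had a log2 fold change of 0.00 ± 0.19 (adjusted p = 0.999). The COUP-TF gene Nr2f2 had -0.75 ± 0.59 (adjusted p = 0.854). Isl1 and Foxp2 were too low to be tested. Isl1 was positive in 1 member. Foxp2 was positive in 0 of 177, where counting error alone, with cells taken as independent, leaves room for a share as high as 1.69%.

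The remaining higher genes had log2 fold changes under 1. Cst3, the cystatin C gene, a secreted inhibitor of cysteine proteases, had 1567, 1785 and 2210 CPM in the members and 818, 1117 and 1455 CPM in the comparison cells, without overlap (log2 fold change 0.75 ± 0.08, adjusted p = 0.000731). Ncdn, which encodes neurochondrin, a cytosolic neuronal protein, had 2794, 3288 and 3716 CPM against 1915, 2242 and 2719 CPM, also without overlap (0.56 ± 0.07, adjusted p = 0.000823). Bpgm, the bisphosphoglycerate mutase gene, had 397, 454 and 547 CPM against 141, 270 and 308 CPM, again without overlap (0.94 ± 0.13, adjusted p = 0.00244). It was positive in 82.0% ± 7.02 of members and 68.1% ± 12.02 of comparison cells.

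Fkbp1a, which encodes the FK506-binding protein FKBP12, had 2791 ± 211 and 2033 ± 312 CPM (SD, n = 9 samples). Its log2 fold change was 0.49 ± 0.08 (SE, adjusted p = 0.0136). The membrane protein gene Itm2c had 0.43 ± 0.07 (adjusted p = 0.0143), and the imprinted gene Nnat (neuronatin) 0.54 ± 0.09 (adjusted p = 0.0205, higher in 8 of 9 samples). The sources do not say how reads matching several places were counted, or on which strand. Values of Fkbp1a, which has pseudogene copies, and of Nnat, which lies inside another gene, are uncertain to that extent.

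Besides Penk, 3 genes were lower. Hpca encodes hippocalcin, a neuronal calcium sensor. It had 224, 245 and 404 CPM in the members and 360, 699 and 759 CPM in the comparison cells. It was lower in 9 of 9 samples (log2 fold change -1.09 ± 0.12, SE, n = 9, adjusted p = 0.000597). Mean Hpca over the ranges of Cartpt level was 566, 434, 282 and 231 CPM.

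Gria3, which encodes the AMPA receptor subunit GluA3, had 12.2, 54.5 and 88.2 CPM in the members and 101, 122 and 268 CPM in the comparison cells, without overlap (-1.40 ± 0.27, adjusted p = 0.0423). It was the gene that passed among 17 tested glutamate receptor genes, whose median was -0.04, and Gria2 had 0.06 ± 0.07 (adjusted p = 0.92). Although the direction held in every fit, Gria3 passed in 1 of the 9 fits that leave out a sample, the one without sample 6. The gene 6330403K07Rik had 799 ± 110 and 1161 ± 171 CPM (-0.51 ± 0.07, adjusted p = 0.00264).

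**Figure D4:**
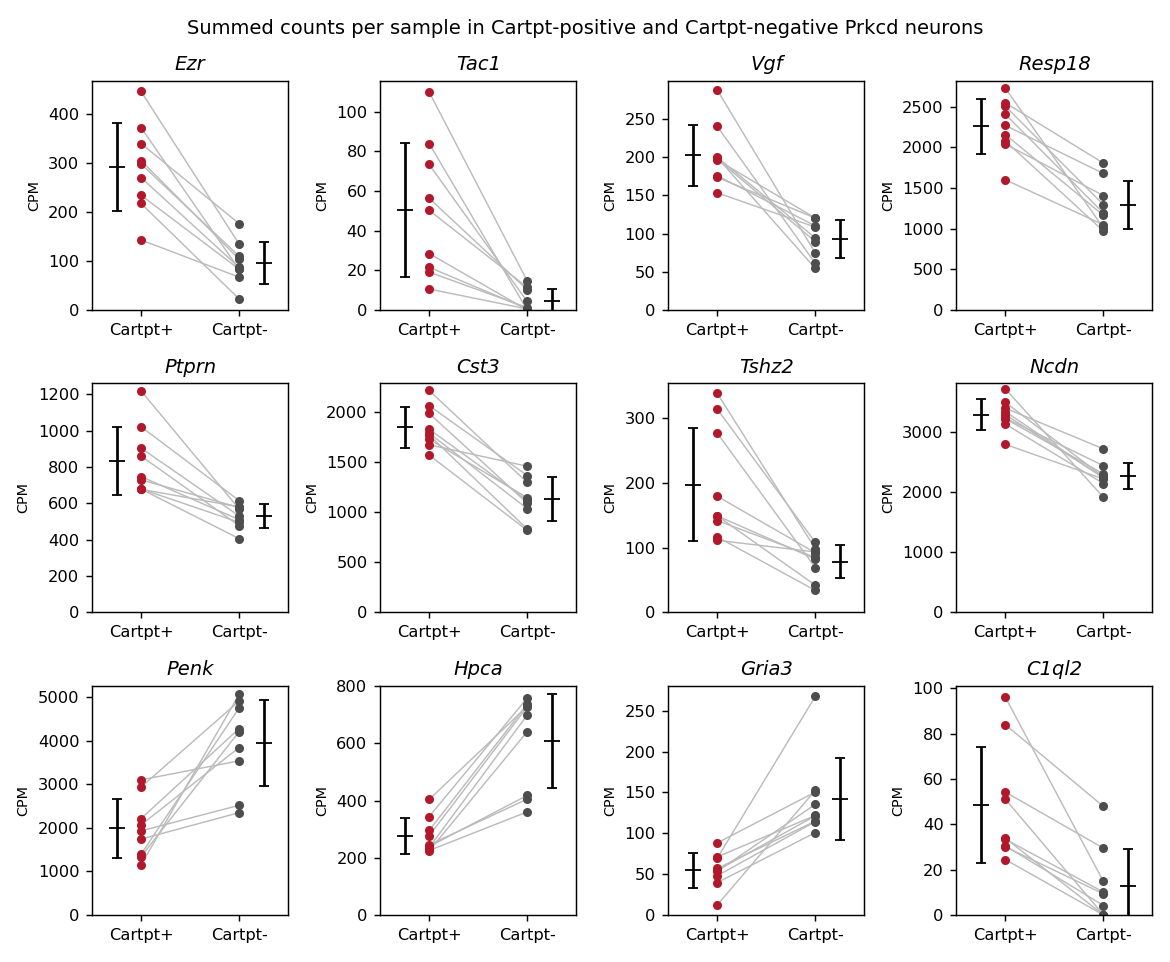
CPM of summed counts of 12 genes in the Cartpt-positive (red) and Cartpt-negative (grey) Prkcd neurons of each sample; lines join the classes of a sample and bars are the mean and SD over 9 samples, with axes starting at 0. Vgf, Ptprn, Cst3, Tshz2, Ncdn and Gria3 do not overlap between classes, and C1ql2 is higher in 9 of 9 samples without passing the test.

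The other markers proposed for these neurons beside Ezr, C1ql2 and Tmcc3, did not pass. C1ql2 encodes a secreted C1q-like synapse organizer. It had 24.4, 33.8 and 96.1 CPM in the members and 0, 9.30 and 47.9 CPM in the comparison cells, higher in 9 of 9 samples with overlapping ranges. Its log2 fold change was 2.92 ± 0.81 (SE, n = 9, adjusted p = 0.203), and by DESeq2 it passed (2.998, adjusted p = 0.000107). C1ql2 was positive in 30 members, a share of 17.4% ± 6.59, and in 5 comparison cells, 4.94% ± 4.97, so most members lacked it at this threshold. Its positive share over the ranges of Cartpt level was 4.62%, 4.26%, 11.1% and 21.9%. None of the 16 tested C1q-like, cerebellin and related synapse genes, C1ql2 among them, passed by edgeR, and their median was -0.05.

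Tmcc3, which encodes an endoplasmic reticulum membrane protein, had 65.4, 116 and 257 CPM in the members and 0, 72.2 and 116 CPM in the comparison cells, higher in 7 of 9 samples. Its log2 fold change was 1.18 ± 0.46 (SE, n = 9, adjusted p = 0.520), and 0.89 without sample 1, where the comparison cells had no count. It was positive in 45.1% ± 15.8 of members and 26.4% ± 14.2 of comparison cells. None of the 11 tested TMCC and ER membrane shaping genes passed. When Prkcd neurons positive for Sst, Crh, Tac2 or Nts were kept in both classes, Tmcc3 passed with the same fold (1.18, adjusted p = 0.0425).

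The other lists of genes held few that passed, to be read against the 0.225% of all tested genes. No gene passed among 12 neuropeptide receptors (median -0.56), 15 GABA and glycine receptors (median -0.27, 3 fitted above 0), 27 potassium channels (median -0.01) or 27 sodium, calcium, HCN and TRP channels (median -0.11). The same was true of 38 axon guidance and adhesion genes (median 0.14, 25 above 0), 13 extracellular matrix genes (median -0.25), 21 activity and stress induced early genes (median 0.38, 15 above 0), 11 protein kinase C isoforms and substrates besides Prkcd (median 0.01) and 12 general neuron genes (median -0.11). Calcrl, the calcitonin receptor-like gene whose product binds CGRP together with a RAMP protein, had 12.2 ± 9.57 and 26.9 ± 17.3 CPM (log2 fold change -0.89 ± 0.94, adjusted p = 0.903). Its partner gene Ramp1 had 0.04 ± 0.21 (adjusted p = 0.99).

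Markers of the extended amygdala gave 2 higher and 1 lower gene (Ezr, Tac1, Penk) of 11 tested, with a median of -0.89. Some of the others had large fitted folds that did not pass, such as Igfbp2 at 2.31 ± 0.48 (adjusted p = 0.0777, 36 positive members and 6 comparison cells) and Cyp26b1, which encodes a retinoic acid degrading enzyme, at -2.08 ± 0.54 (adjusted p = 0.163, 6 and 20 cells). These 2 were chosen after their values were seen. The list itself was chosen with earlier results of these data known, and it holds Ezr, a marker proposed for these neurons. Its share of passing genes is therefore a description.

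**Figure D5:**
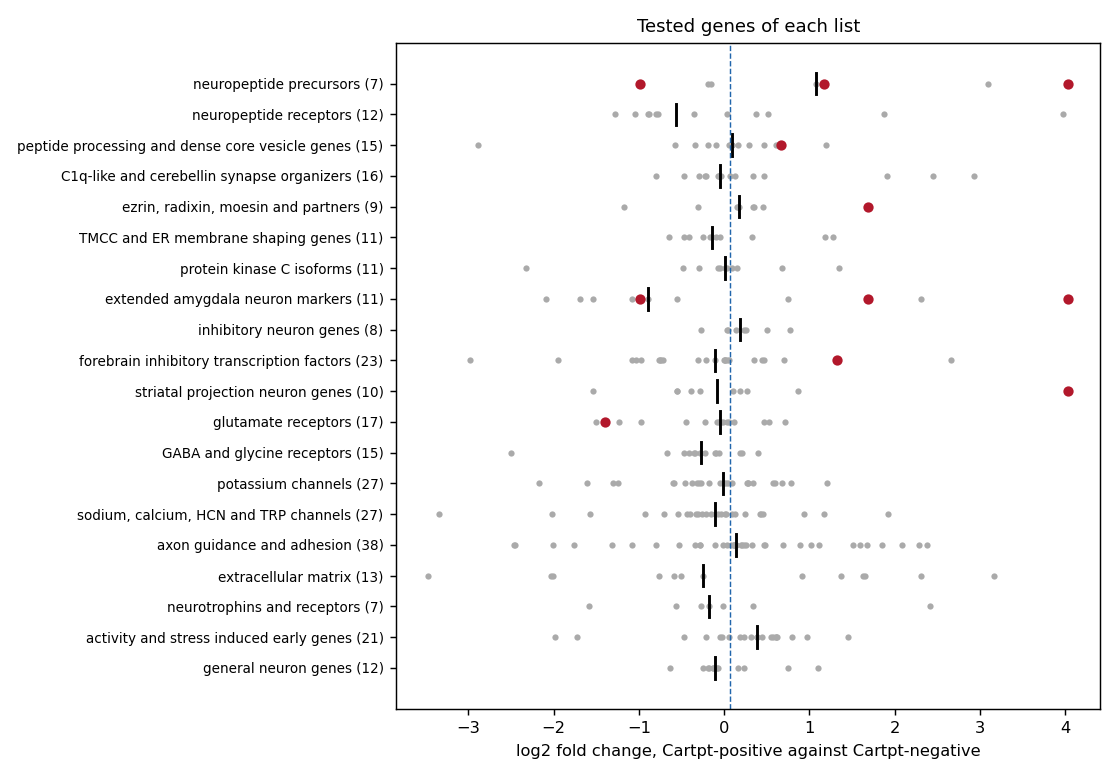
Fitted log2 fold change of every tested gene (rule genes left out) in 20 gene lists, members against Cartpt-negative Prkcd neurons; red points passed, grey points did not, black bars are list medians, the dashed line is the median of all tested genes (0.07) and the number after a name is the genes tested. Red points appear in 7 lists, and Tac1, Ezr and Penk appear in more than 1.

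Over the single cells of both classes, the 8 genes whose CPM followed Cartpt most closely by Spearman's rho, of 7894 genes positive in at least 5% of the 289 cells, were Cst3 (0.44), Ncdn (0.43), Fkbp1a (0.43), Nnat (0.40), Rap1gap (0.40), Vgf (0.38), Itm2c (0.38) and Tshz2 (0.37). All 8 are among the 17 higher genes. The same cells and counts give both values, and cells share samples and depth, so this is a description. At the other end, Cyp26b1 had the lowest rho, -0.44.

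Of the marker lists of other cell types, that of oligodendrocytes had the highest mean sum in both classes, 179 CPM in the members and 157 CPM in the comparison cells. The summed level of 9 oligodendrocyte markers was 125 to 234 CPM in the members and 92.8 to 293 CPM in the comparison cells, higher in the members of 6 of 9 samples, with 4 of 9 genes higher and none at 0 in both. Its leading gene, the myelin gene Mbp, had 107 ± 35.6 and 68.9 ± 37.2 CPM (log2 fold change 0.74 ± 0.29, adjusted p = 0.553) and was positive in 57 members and 27 comparison cells. Without those cells 5 genes were higher (Vgf, Bpgm, Cst3, Rap1gap and Ncdn) and 0 lower by edgeR, with 480 genes at an unadjusted p under 0.05. The rest of the 21 genes did not pass there, among them Ezr, Tac1, Tshz2, Resp18, Ptprn, Penk, Hpca and Gria3. That fit has 84 fewer cells, and all 21 genes kept their direction in it.

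Astrocyte markers summed to 2.71 to 44.4 CPM in the members and 6.04 to 90.7 CPM in the comparison cells, higher in the members of 3 of 9 samples. Microglial markers reached at most 21.1 and 0.705 CPM, with C1qa, C1qb, Cx3cr1 and Tmem119 at 0 in both. The microglial sum averaged 6.15 CPM in the members and 0.136 CPM in the comparison cells and was higher in the members of 5 of 9 samples. The astrocyte sum averaged 18.3 and 41.8 CPM, the other direction. Cst3, a gene that glia also express, averaged 1843 CPM in the members and 1127 CPM in the comparison cells. The part of glial RNA in the Cst3 difference was not tested. Endothelial and mural markers summed to 62.2 to 191 and 40.3 to 198 CPM, nearly all from Itm2a, with Cldn5, Ly6c1, Rgs5 and Vtn at 0. Excitatory neuron markers summed to 32.8 to 76.3 and 37.8 to 131 CPM, led by Camk2a, which is not restricted to such cells. Doublets were not called, and their part in these values was not tested.

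Members were also set beside the few neurons that had Cartpt without Prkcd under the same exclusions, 21 cells in all. At least 3 such cells were present in samples 5, 6, 8 and 9, which gave 69 members and 15 cells of the other class. Relative to those cells the members had more Rap1gap, Ncdn, Cst3 and Itm2c and less Rgs10 and Pcp4. Of 8431 genes tested, 5 were higher (0.0593%) and 3 lower (0.0356%), together 0.0949%, while the median log2 fold change of all genes was 0.53, so values are to be read against that shift. Rap1gap had 1240 and 233 CPM on average over the 4 samples (log2 fold change 2.56 ± 0.24, adjusted p = 0.00187), Ncdn 3309 and 1019 CPM (1.83 ± 0.21, adjusted p = 0.00618) and Cst3 2009 and 820 CPM (1.38 ± 0.17, adjusted p = 0.00770). Itm2c had 1.11 ± 0.15 (adjusted p = 0.0109) and the mitochondrial ribosomal RNA gene mt-Rnr2, which has nuclear copies, 0.81 ± 0.13 (adjusted p = 0.0310).

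On the lower side were Pcp4, a calmodulin-binding protein gene (8.56 and 372 CPM, -5.90 ± 0.81, adjusted p = 0.0128), Rgs10, a regulator of G protein signalling (38.2 and 367 CPM, -3.16 ± 0.41, adjusted p = 0.00969), and 6330403K07Rik (-1.15 ± 0.17, adjusted p = 0.0199). All 8 went one way in the 4 samples. The 2 comparisons share the member cells, so genes that passed in both (Rap1gap, Ncdn, Cst3, Itm2c and 6330403K07Rik) are given side by side and not as a second finding. Without sample 6, 1 higher and 0 lower genes passed, and without sample 8, 1 higher and 2 lower. Without sample 9 the counts were 7 and 6.

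Several genes of the first comparison were low in the Cartpt-positive cells without Prkcd. Pooled over all 21 of them, Ezr was 26.3 CPM and positive in 14.3% of cells, and Bpgm was 147 CPM. C1ql2 was 0.302 CPM. Pdyn and Isl1 were each positive in 28.6% of these cells, while 3 and 1 of the 177 members were positive for them. None of these differences passed in the second comparison where tested (Ezr adjusted p = 0.281, Bpgm 0.159, C1ql2 0.479, Pdyn 0.701 and Isl1 0.707).

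Whether the Cartpt difference depends on Prkcd was tested as an interaction over 4 classes in the same 4 samples. Of 10980 genes, 1 was higher (0.00911%) and 0 lower by edgeR, with 878 at an unadjusted p under 0.05. The gene, Atp6v0e, encodes a subunit of the vacuolar proton pump. It had 91.1 ± 38.3 and 66.8 ± 38.8 CPM in the members and comparison cells over 9 samples. Its counts were 0 in the 15 Cartpt-positive cells without Prkcd of the 4 samples tested. The other 6 cells of that class were too few per sample (2 each in samples 1, 2 and 3) to enter the test, and there the gene had 18, 21 and 33 counts, or 66.9, 96.7 and 67.3 CPM, within the members' range of 32.4 to 158 CPM. The fitted value of 11.19 ± 1.44 (adjusted p = 0.0317) depends on those zeros in 15 cells and is not a bound, and the gene passed in none of the fits that leave out a sample. None of the 21 genes of the first comparison had an interaction that passed. Among them Vgf had 2.48 ± 0.72 and Cst3 0.63 ± 0.19 (both adjusted p = 0.403). Their differences by Cartpt are therefore not shown to be particular to Prkcd neurons, and 15 cells leave wide errors.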

How the data were processed

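The authors deposited a table of raw counts (gene symbols by cells, not normalized), with 22601 genes and the spike-ins, beside a table of each cell's sample, animal number and date field. Per the submitters' processing notes the build was NCBIM37, and Seurat is named there. Not given in the sources used here are aligner, annotation, strand and molecular identifiers. The counts may thus hold PCR copies, and limits from counts cover counting error only. The total gene counts of a sample were 8522750 to 22730327, and spike-ins were left out of all of them.

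The members and the gene lists (591 genes in 30 lists, of which 573 were in the table) were chosen with earlier results of these data known. Cells were classed by the thresholds given above, and no cell was removed for low counts. Sums of counts were made for each class in each sample with at least 5 of its cells (3 in the second comparison and the interaction). They were tested in R 4.3.3 with edgeR 4.0.16, using its quasi-likelihood test with TMM scaling, the sample as a block and filterByExpr, and Benjamini-Hochberg adjustment over all genes. The 11 genes of the rule entered the fit, 6 of them passed its filter, and they were left out of the counts of genes. The script was tested on simulated data.

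Named genes are the rule's genes and markers, Penk, Pdyn, Calcrl, Isl1, Nr2f2, Sox5, Foxp2 and Mbp whatever their result, and up to 12 on each side by fold among those that passed with a mean of at least 10 CPM and 1 direction in all samples or all but 1. Up to 2 passing genes of each list were added, and up to 6 on each side for the other comparisons. For per-sample differences an exact sign-flip permutation test, two-sided, was used. Neighbours came from 30 principal components of 2000 variable genes (scikit-learn 1.9.0). Counts were thinned with seed 7. Scripts ran in Python 3.11.15 with pandas 2.3.3, numpy 2.4.6 and scipy 1.17.1.

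Alternatives were DESeq2 1.42.0, median-of-ratios scaling, leaving out the sample block or the filter, other thresholds for a positive cell, thinned counts, other minimum and equal cell numbers, cells under 20000 counts or positive for Mbp left out, no exclusion of peptide markers, leaving out each sample, and sums per date field or per animal number. Chosen after the data were seen were a comparison class with 0 Cartpt counts, single date fields, leaving out Isl1-positive cells and leaving Cartpt out before scaling. A result on a further gene of the lists is not reported here.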

Additional observations from a re-analysis of the deposited data

Results flagged for a closer look

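In 3 of the 32 per-sample values checked, 1 of the 9 samples lay far from the others, where chance alone gives about 1 in 20. Tmcc3 had a log2 difference between the classes of 6.35 in sample 1, where the comparison cells had no count, and of -0.81 to 2.05 in the other 8 samples. The Gria3 difference was -3.54 in sample 6 and -1.93 to -0.76 in the others. Ncdn had 0.96 in sample 6 and 0.32 to 0.63 in the others. All 3 are log2 differences with 1 CPM added.

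Atp6v0e had a Cartpt difference that depended on Prkcd by the edgeR interaction test, with a fitted value of 11.19 over 4 samples (adjusted p = 0.0317). The value rests on 0 counts in the 15 Cartpt-positive cells without Prkcd of those samples. The 6 such cells of samples 1, 2 and 3, which did not enter the test, had 66.9, 96.7 and 67.3 CPM.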

How the results depend on the processing

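All 21 genes of the first comparison kept their direction under each of the 30 alternatives, except that 1 of them was not tested at 1 count, and 10 of them passed in each of the 9 fits that leave out a sample. The number that passed was less stable. DESeq2 called 188 higher and 111 lower genes, no filter 33 higher, and no exclusion of peptide markers 39 and 19. With a cell positive at 1 count (4 samples) 0 and 0 passed by edgeR, with 371 at an unadjusted p under 0.05, and at 3 per 10000 the lower count was 2. Equal cell numbers gave 10 higher genes, leaving out Mbp-positive cells 5 and 0, and a comparison class with 0 Cartpt counts 6 higher. Sums per animal number gave 0 and 0 (755 unadjusted), per date field 6 and 2, and the samples of each single date field 0 and 0. Leaving out a sample gave 10 to 17 higher genes (10 without sample 7 or 8) and 2 to 5 lower ones (2 without sample 3, 7 or 8). Without the sample block 20 genes passed, 18 of them shared with the fit that has it, so the block changed few calls. The causes of these changes were not tested, beyond fewer cells or samples where an alternative removes them.

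In the second comparison DESeq2 called 130 higher and 57 lower genes, no filter 59 and 25, and a threshold of 3 per 10000 0 and 0 by edgeR (266 at an unadjusted p under 0.05). Without the replicate block 1 lower gene passed. Leaving out a sample gave 1 to 7 higher and 0 to 6 lower genes. For the interaction, no filter gave 1 lower gene, and leaving out a sample gave 0 higher genes in each of 4 fits (795 to 924 unadjusted).

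The neighbour share difference stayed between 18.7 and 24.9 points under its alternatives, and above 0 in each. Differences near 0 changed sign. Gene counts per cell ranged from -0.00022 to 0.070 when a sample was left out, and detected genes per cell from -37.6 to 31.9, or 8.22 unthinned. Sox5 had -0.022 with median-of-ratios scaling, -0.023 by DESeq2, -0.019 without the replicate block, -0.059 with at least 10 cells, -0.072 with equal cells, -0.10 without Mbp-positive and -0.058 without Isl1-positive cells. Its value was -0.066 per animal number, -0.047 per date field, -0.11 and -0.012 in the later date fields alone, -0.0021 with Cartpt left out before scaling, and -0.12 to 0.093 when a sample was left out. Calcrl had 0.74 in the last date field alone, Nr2f2 0.81 in the first and Mbp -0.15 at 1 count. C1ql2 passed by DESeq2 and Tmcc3 with no exclusion of peptide markers.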

Other observations

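The following genes were too low for the test or did not pass it, and were chosen after their values were seen. Pvalb, the parvalbumin gene, was positive in 16 of the 177 members and 0 of the 112 comparison cells. Counting error alone, with cells taken as independent, leaves room in the comparison cells for a share as high as 2.68%. Dlk1, which encodes a Notch-related membrane protein, was positive in 8 members and 21 comparison cells (log2 fold change -1.69 ± 0.68, edgeR adjusted p = 0.567). The homeobox factor gene Pbx3 was positive in 5 and 14 cells (-2.98 ± 0.93, adjusted p = 0.321). Ramp3, which encodes a receptor activity modifying protein, was positive in 54 and 13 cells (1.88 ± 0.80, adjusted p = 0.614). Wfs1, which encodes wolframin of the endoplasmic reticulum, had 1340 ± 144 and 859 ± 302 CPM (0.74 ± 0.16, adjusted p = 0.103), higher in 8 of 9 samples.

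Pooled over the 245 inhibitory neurons that were negative for Prkcd, Cartpt and the other peptide markers, Ezr was 9.81 CPM, Bpgm 121 CPM, Rap1gap 215 CPM, Ncdn 636 CPM, Gria3 252 CPM and Hpca 1033 CPM. For Ezr, Bpgm, Rap1gap and Ncdn the comparison cells stood between those neurons and the members (96.3, 248, 843 and 2275 CPM in the comparison cells), and for Gria3 and Hpca likewise in the other direction (142 and 608 CPM). Other genes did not follow this order. Tac1 was 56.7 CPM in the 245 neurons, against 4.78 in the comparison cells and 50.4 in the members. Penk was 2312 CPM against 3943 and 1987, and Tshz2 84.0 against 78.3 and 197. Pooled over the 255 inhibitory neurons positive for Sst, Crh, Tac2 or Nts, with or without Prkcd and Cartpt, Tac1 was 163 CPM and Tshz2 313 CPM. Both lay above the members, while Penk, at 1269 CPM, lay below them. The 9 genes were chosen after their values were seen, and the pooled values have no replicate error and were not tested.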
